A study of Mus musculus with 14 samples.

Results

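Spinocerebellar ataxias are dominantly inherited diseases in which the cerebellum, and in many types its Purkinje cells, degenerate. The mouse orthologs of 9 of the causal human genes were followed here: Atxn1, Atxn2, Atxn3, Atxn7, Atxn10, Ttbk2, Ppp2r2b, Fgf14 and Elovl4. They were chosen by name, as known ataxia genes, and not by a cut-off on a measured value. The choice was made with earlier results of these data known. All 9 were found among the 24100 genes of the count table, and all 9 had enough counts to be tested in every comparison, with 140 to 11315 counts per library.

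RNA was sequenced from the cerebellum of mice at postnatal day 21 (P21), 21 days after birth. Astn2 knockout (KO) mice lack astrotactin 2, a membrane protein of neurons, and were compared with wild-type (WT) littermates. All animals carried Tg(Pcp2-L10a-EGFP), a bacTRAP transgene in which Purkinje cell promoter Pcp2 drives a ribosomal protein fused to green fluorescent protein. In translating ribosome affinity purification (TRAP), tagged ribosomes are pulled down with antibodies and the messenger RNA on them is sequenced, while a part of the cleared homogenate is kept as input, which stands for the whole cerebellum. The 4 groups were input WT (n = 4, 1 female and 3 males), input KO (n = 3, 2 females and 1 male), TRAP WT (n = 3, 1 female and 2 males) and TRAP KO (n = 4, 2 females and 2 males).

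The genes fall into 3 groups by the mutation known in patients. In ATXN1, ATXN2, ATXN3 and ATXN7 a run of CAG codons, which encode glutamine, grows longer, and the protein gains an extended glutamine tract. In ATXN10 and PPP2R2B a repeat expands outside the protein-coding sequence. TTBK2, FGF14 and ELOVL4 carry truncations or amino acid substitutions, and FGF14 also a repeat expansion in an intron. The proteins have little in common: a transcriptional repressor, an RNA-binding protein, a deubiquitinase, a chromatin subunit, a protein that supports neurite outgrowth, a kinase, a phosphatase subunit, a sodium channel regulator and a lipid enzyme. In Purkinje cells, which send the only output of the cerebellar cortex, loss or overload of several of them is known to disturb firing and survival.

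The mouse reference carries only short CAG runs in the 4 glutamine-tract genes. They are shown because a CAG run is mutated in patients, but they need not be the counterpart of the human repeat. Each stretch is the longest in-frame run of the glutamine codons CAG and CAA, in capitals, with 8 codons on each side in lower case, on the coding strand from 5′ to 3′. The sequences are from the coding exons of the longest GENCODE M21 transcript, build GRCm38.
Atxn1: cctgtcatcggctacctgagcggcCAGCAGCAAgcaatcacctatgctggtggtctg
Atxn2: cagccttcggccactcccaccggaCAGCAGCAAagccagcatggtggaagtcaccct
Atxn3: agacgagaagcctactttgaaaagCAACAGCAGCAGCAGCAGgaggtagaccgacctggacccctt
Atxn7: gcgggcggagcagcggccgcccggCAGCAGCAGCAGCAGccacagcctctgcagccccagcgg

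The Atxn3 run was the longest, with 6 codons, 5 CAG and 1 CAA, at codons 292 to 297 of 355. The stretch printed, with its flanks, crosses a splice junction: its first 23 bases, all upstream flank, lie in exon 9 (chr12:101932968-101932990, minus strand), and the other 43 bases, with the whole run, in exon 10 (chr12:101926539-101926581). The Atxn7 run had 5 codons, all CAG, at codons 25 to 29 of 867 in exon 2 (printed stretch with flanks, chr14:14013132-14013194, plus strand). The runs in Atxn1 and Atxn2 had 3 codons each, 2 CAG and 1 CAA. In Atxn1 the run sits at codons 444 to 446 of 791 in exon 7 (printed stretch with flanks, chr13:45567056-45567112, minus strand), and in Atxn2 at codons 1129 to 1131 of 1286 in exon 22 (printed stretch with flanks, chr5:121810922-121810978, plus strand). No human sequence was aligned, so whether these runs stand at the place of the human repeat was not determined. In the other 5 genes the longest run had 1 or 2 codons.

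The purified and input libraries differed as their labels say. Library totals were 18799609 to 54229183 counts. Values below are counts per 1e6 counts of the library (CPM), scaled by the trimmed mean of M-values (TMM), a factor that corrects for differences in RNA composition. Astn2 itself was at 88.7 to 104 CPM in input WT and 117 to 146 CPM in TRAP WT, against 0.729 to 0.968 CPM in input KO and 1.06 to 2.11 CPM in TRAP KO, so every library matched its genotype label. The 8 Purkinje cell markers summed to 63927 to 76343 CPM in TRAP and 4480.1 to 5358 CPM in input, and all 8 were higher in TRAP in both genotypes. The 6 granule cell markers summed to 476 to 991 CPM in TRAP and 3593 to 4029.6 CPM in input, and no marker of either list was at 0 in any group. The 6 oligodendrocyte markers still summed to 872 to 1972 CPM in TRAP KO. TRAP levels can thus include RNA of other cell types, and its share in each gene was not tested. The labels do not say that libraries of a group came from separate animals, so p-values measure the spread between these libraries.

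The first comparison asks which of the ataxia genes were higher or lower, after TMM scaling, in the TRAP RNA than in that of the whole cerebellum. Among the 9, Ppp2r2b had the highest ratio, at 2.99 times its input level in WT and 2.96 times in KO, and Atxn7 and Atxn3 had the lowest, at 0.263 and 0.560 of input in WT. In WT, 3 of 9 genes were higher in TRAP (Ppp2r2b, Elovl4 and Atxn2), 4 were lower (Atxn7, Atxn3, Ttbk2 and Atxn1), and Atxn10 and Fgf14 did not pass the test. In KO, 2 were higher (Ppp2r2b and Atxn2), 5 were lower (Atxn7, Atxn3, Ttbk2, Fgf14 and Atxn1), and Atxn10 and Elovl4 did not pass. Of all genes tested, 37.0% were called higher and 38.5% lower in WT, and 36.3% higher and 39.6% lower in KO. With 75.5% of genes called in WT and 75.9% in KO, a call by itself sets no ataxia gene apart. The median log2 fold change of the 9 genes was -0.34 in WT and -0.62 in KO, against -0.088 and -0.11 over all genes tested and 3.91 and 3.74 for the Purkinje cell markers. In bulk samples, fewer cells of a type and less RNA per cell cannot be told apart.

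**Figure D1:**
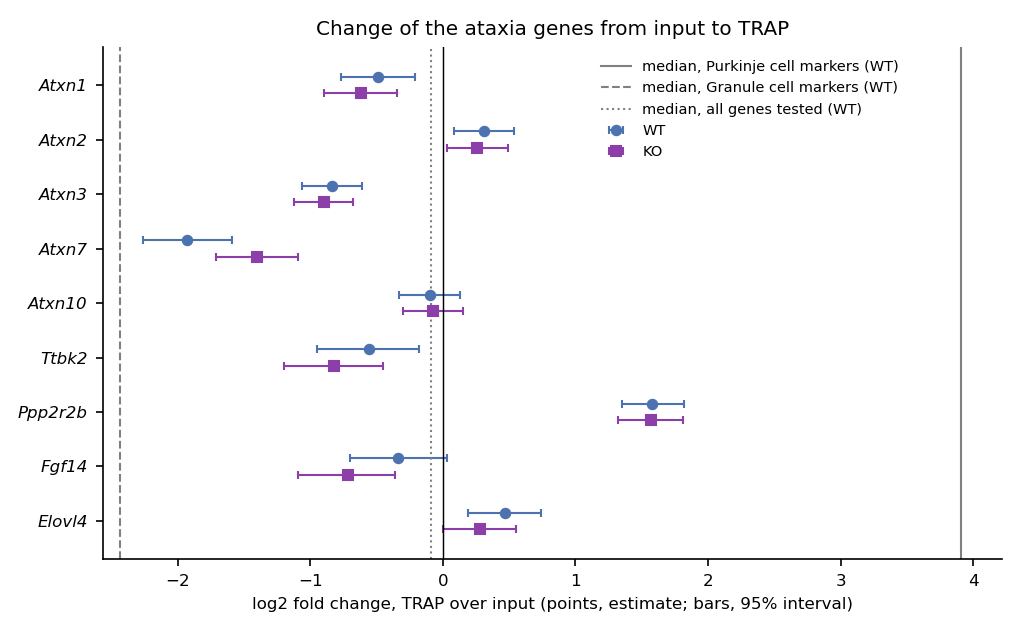
TRAP against input for the 9 ataxia genes, with the log2 fold change on the horizontal axis, bars for the 95% confidence interval of edgeR's fit, and separate points for WT and KO. Vertical lines mark the WT medians of all genes (-0.088), of the Purkinje cell markers (3.91) and of the granule cell markers (-2.44); Ppp2r2b is farthest to the right (1.58 in WT) and Atxn7 farthest to the left (-1.93 in WT).

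Atxn1 (Entrez 20238, GRCm38.p6 chr13:45549755-45964991, minus strand, 8 exons) encodes ataxin-1, which represses transcription together with Capicua. Its level was 35.2, 35.5, 33.6 and 37.6 CPM in input WT 1 to 4 and 33.5, 35.1 and 39.1 CPM in input KO 1 to 3. In TRAP it was 21.9, 28.3 and 25.3 CPM in WT 1 to 3 and 28.7, 21.7, 22.2 and 20.8 CPM in KO 1 to 4. No TRAP library reached the lowest input library. The difference on the log2 scale was -0.49 ± 0.13 (SE) in WT, adjusted p = 0.00361, and -0.62 ± 0.13 in KO, adjusted p = 5.37e-04, by edgeR's quasi-likelihood test with Benjamini-Hochberg adjustment, which gives every adjusted p below unless another tool is named. The direction turned when libraries were corrected for transcript length, as described after the single genes.

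Atxn2 (Entrez 20239, chr5:121711609-121814950, plus strand, 25 exons) encodes ataxin-2, which binds RNA together with the poly(A)-binding protein and takes part in stress granules. Input levels were 54.2, 60.2, 57.9 and 63.2 CPM in WT and 60.0, 52.6 and 66.8 CPM in KO. TRAP levels were 65.1, 70.9 and 81.0 CPM in WT and 74.8, 66.0, 66.5 and 84.5 CPM in KO. In WT the TRAP libraries lay above all input libraries, by a small margin, while in KO the groups overlapped because input KO 3 was above TRAP KO 2 and 3. TRAP minus input on the log2 scale was 0.31 ± 0.11 in WT (adjusted p = 0.0163) and 0.26 ± 0.11 in KO (adjusted p = 0.0375), the smallest called differences among the 9 genes. Without TRAP WT 3 the WT call was lost, at 0.22 (adjusted p = 0.0774), and the KO call held in 5 of 14 fits that each left out 1 library, with adjusted p from 0.00953 to 0.151.

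Atxn3 (Entrez 110616, chr12:101918901-101959121, minus strand, 11 exons) encodes ataxin-3, an enzyme that removes ubiquitin from proteins. Input levels were 20.8, 19.0, 18.8 and 19.1 CPM in WT and 19.5, 20.0 and 18.6 CPM in KO. TRAP levels were 11.3, 10.7 and 10.7 CPM in WT and 9.44, 9.86, 11.3 and 11.0 CPM in KO. All 7 TRAP libraries lay far below the 7 input libraries, and the spread within each group was small. This gave a log2 fold change of -0.84 ± 0.10 in WT (adjusted p = 6.61e-06) and -0.90 ± 0.10 in KO (adjusted p = 2.57e-06).

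Atxn7 (Entrez 246103, chr14:13961283-14107316, plus strand, 12 exons) encodes ataxin-7, a subunit of the SAGA chromatin complex, in which it anchors the module that removes ubiquitin from histones. Input levels were 35.9, 32.5, 31.9 and 30.9 CPM in WT and 31.3, 31.8 and 30.6 CPM in KO. In TRAP, 9.57, 9.34 and 7.13 CPM were measured in WT and 10.9, 11.3, 9.85 and 15.1 CPM in KO. The groups were far apart, with the highest TRAP library, KO 4, at 15.1 CPM and the lowest input library, KO 3, at 30.6 CPM. Atxn7 had the lowest ratio of the 9 genes, -1.93 ± 0.16 on the log2 scale in WT (adjusted p = 8.03e-08) and -1.40 ± 0.14 in KO (adjusted p = 9.88e-07). Ranked among the changes of all tested genes from lowest to highest, it stood at the 13.3 percentile in WT and the 21.2 percentile in KO.

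Atxn10 (Entrez 54138, chr15:85336255-85463837, plus strand, 12 exons) encodes ataxin-10, known to support neuron survival and neurite growth. Input levels were 127, 137, 138 and 136 CPM in WT and 152, 138 and 162 CPM in KO. TRAP levels were 139, 129 and 107 CPM in WT and 134, 141, 149 and 150.3 CPM in KO. TRAP and input overlapped in both genotypes. Between them the log2 fold change was -0.10 ± 0.11 in WT, with a 95% interval of -0.33 to 0.13, and -0.078 ± 0.11 in KO, with an interval of -0.30 to 0.15. Its change stood at the 49.7 and 51.0 percentile, in the middle of all genes.

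Ppp2r2b (Entrez 72930, chr18:42645207-43059471, minus strand, 9 exons) encodes a brain-enriched regulatory B subunit of protein phosphatase 2A, which directs the enzyme to its substrates. Input levels were 40.4, 38.4, 42.6 and 40.4 CPM in WT and 38.8, 41.3 and 49.5 CPM in KO. TRAP levels were 124, 114 and 122 CPM in WT and 119.8, 126, 119 and 153 CPM in KO. The lowest TRAP library, WT 2 at 114 CPM, was far above the highest input library, KO 3 at 49.5 CPM. The fold was 2.99 in WT (95% interval 2.54 to 3.52, adjusted p = 1.79e-08) and 2.96 in KO (2.50 to 3.52, adjusted p = 3.69e-08). On the log2 scale these were 1.58 ± 0.11 and 1.57 ± 0.11, at the 86.5 and 87.9 percentile of all genes. The Purkinje cell markers rose more, with log2 fold changes of 2.48 to 4.99 in WT.

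Ttbk2 (Entrez 140810, chr2:120732816-120850584, minus strand, 16 exons) encodes tau tubulin kinase 2, which starts the assembly of primary cilia. Input levels were 129, 124, 122 and 133 CPM in WT and 160.0, 153 and 165 CPM in KO. In TRAP, 79.6, 68.1 and 109 CPM were measured in WT and 85.6, 86.6, 69.6 and 122 CPM in KO. Within each genotype the TRAP libraries were all below the input libraries, with TRAP WT 3 and TRAP KO 4 well above the rest of their groups. The fitted log2 difference was -0.56 ± 0.18 in WT (adjusted p = 0.0109) and -0.82 ± 0.18 in KO (adjusted p = 7.64e-04). Ttbk2 shares exon sequence on the same strand with Cdan1, the gene of codanin-1, so reads there cannot be assigned to one of them with certainty. The direction of this gene also turned after the correction for transcript length.

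Fgf14 (Entrez 14169, chr14:123974441-124677686, minus strand, 5 exons) encodes an intracellular fibroblast growth factor homologue that binds voltage-gated sodium channels and supports the fast firing of Purkinje cells. Input levels were 87.0, 78.9, 64.2 and 62.8 CPM in WT and 92.3, 77.5 and 98.0 CPM in KO. TRAP levels were 54.3, 50.0 and 69.6 CPM in WT and 50.8, 51.6, 45.5 and 69.1 CPM in KO. In KO all TRAP libraries were below all input libraries. In WT the groups overlapped, because TRAP WT 3 lay above input WT 3 and 4. Fgf14 passed in KO and not in WT, with log2 fold changes of -0.72 ± 0.17 in KO (adjusted p = 0.00157) and -0.34 ± 0.17 in WT (adjusted p = 0.0905). Without TRAP WT 3 the WT value was -0.52 and passed (adjusted p = 0.0143), in 1 of 14 fits that each left out 1 library. With an offset fitted to transcript length the WT value was -0.14 (adjusted p = 0.469). With an offset fitted to GC content, the share of G and C bases, it was -0.05 (adjusted p = 0.790). The KO call held under both offsets, at -0.54 and -0.44.

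Elovl4 (Entrez 83603, chr9:83778692-83806305, minus strand, 6 exons) encodes an elongase that makes fatty acids with very long chains. Input levels were 40.7, 42.9, 41.4 and 45.0 CPM in WT and 37.8, 42.5 and 40.1 CPM in KO. TRAP levels were 49.2, 61.4 and 65.1 CPM in WT and 52.0, 52.5, 52.0 and 38.5 CPM in KO. In WT every TRAP library was above every input library. In KO 3 of 4 were, and TRAP KO 4 fell among the input libraries. Elovl4 had a log2 fold change of 0.47 ± 0.13 in WT (adjusted p = 0.00437) and 0.28 ± 0.13 in KO (adjusted p = 0.0644), and without TRAP KO 4 the KO value was 0.38 and passed (adjusted p = 0.00517).

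**Figure D2:**
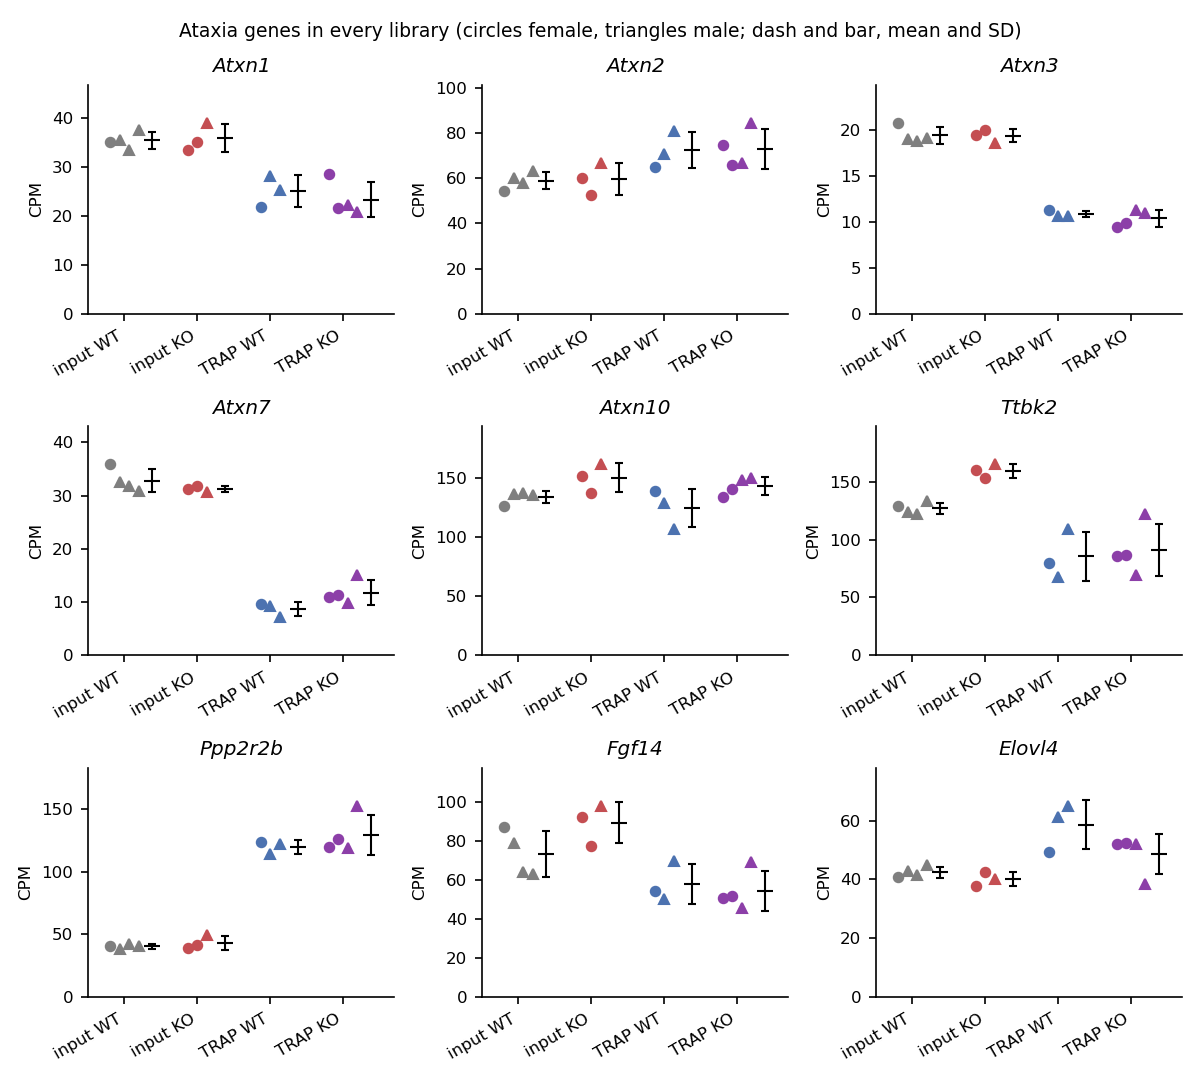
Level of each of the 9 ataxia genes in all 14 libraries, in TMM-scaled CPM on a linear axis starting at 0, 1 panel per gene, with circles for female and triangles for male libraries and a dash with a bar for the mean and SD of each group. The TRAP points of Ppp2r2b lie at 114 to 153 CPM, above all input points at 38.4 to 49.5 CPM, and those of Atxn7 at 7.13 to 15.1 CPM, below all input points.

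By range, the TRAP libraries lay wholly above input for 3 of 9 genes and wholly below for 4 in WT, where 34.4% and 38.2% of all genes did so. In KO this was 1 of 9 above, Ppp2r2b, and 5 below, where 37.8% and 40.2% of all genes did so.

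The scale of the libraries and the length of the transcripts both moved with these values. When libraries were scaled by their totals alone, the typical gene shifted by -0.82 in WT and -0.73 in KO. Atxn2 then stood at -0.51 and -0.48, Elovl4 at -0.36 and -0.46, and Ppp2r2b at 0.76 and 0.83 on the log2 scale. Relative to the median of all genes, Atxn2 stood at 0.40, Elovl4 at 0.55, Ppp2r2b at 1.67 and Atxn7 at -1.84 in WT under that scaling. The step from TMM to totals moves all genes by about the same amount. Values relative to the median therefore stay the same under it, and they are no check of the signs. Atxn2 and Elovl4 were above the typical gene, and the sign of their fold change depended on the scaling. With TMM factors taken over genes with a mean count of at least 50, Atxn2 no longer passed, at 0.10 in WT (adjusted p = 0.379) and 0.074 in KO (adjusted p = 0.510), nor did Elovl4, at 0.25 in WT (adjusted p = 0.0779). Under that filter Atxn10 passed as lower, at -0.31 in WT (adjusted p = 0.0149) and -0.26 in KO (adjusted p = 0.0319), and so did Fgf14 in WT, at -0.55 (adjusted p = 0.0104).

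For transcript length, all genes with a known length were ranked and divided into 4 equal classes. In the class with the shortest transcripts the median on the log2 scale was 0.78 for WT and 0.79 for KO, and the class with the longest, from 4.67 kb, had -0.72 and -0.78. Ttbk2, with a longest transcript of 11152 nucleotides, Atxn1 with 10569, Atxn7 with 6853 and Atxn3 with 5363 belong to the longest class, and these are the 4 genes called lower in WT. Of all genes in that class, 58.1% were called lower and 18.7% higher in WT, and 60.7% and 16.8% in KO. After an offset fitted to length within each library, a step added after seeing the data, Atxn1 was higher in TRAP, at 0.61 in WT (adjusted p = 0.00134) and 0.50 in KO (adjusted p = 0.00589). Ttbk2 became 0.56 in WT (adjusted p = 0.00290) and 0.33 in KO (adjusted p = 0.0514). Atxn7 and Atxn3 were lower with the offset too, at -1.16 and -0.28 in WT and -0.65 and -0.36 in KO, and Ppp2r2b was higher, at 1.43 and 1.39. Atxn10, whose longest transcript has 1937 nucleotides, then passed as lower, at -0.38 in WT (adjusted p = 0.00419) and -0.40 in KO (adjusted p = 0.00289). TRAP WT 3 and TRAP KO 4, the TRAP libraries highest for Ttbk2, also had the highest levels of long relative to short transcripts among the TRAP libraries, at 0.22 and 0.15 on the log2 scale, against -0.28 to 0.055 in the other 5. What lies behind the length trend was not tested.

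**Figure D3:**
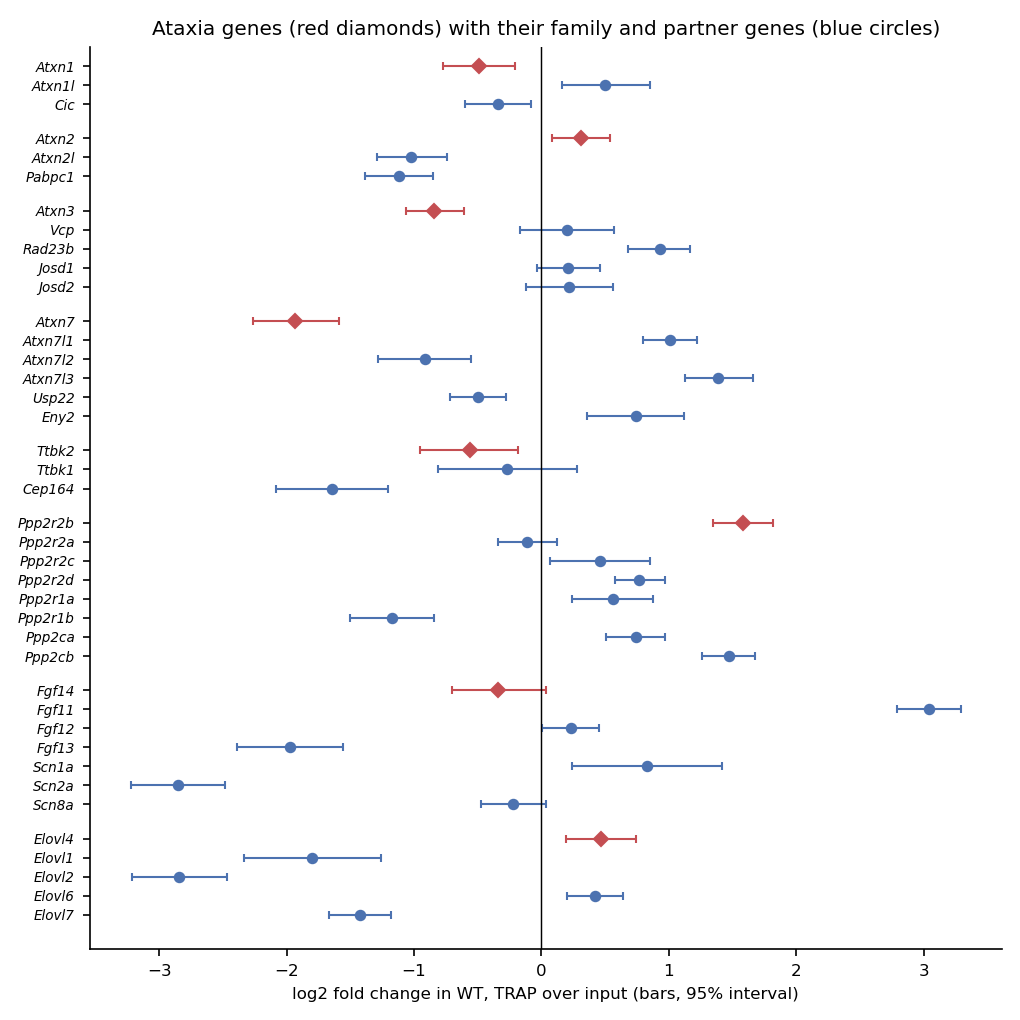
TRAP against input in WT for the ataxia genes that have listed relatives or partners, and for those relatives and partners. Atxn10 had none listed and is not drawn. The log2 fold change is on one axis and genes are grouped by family on the other. Diamonds mark the ataxia genes, circles the relatives and partners, and bars the 95% confidence interval. Relatives of the same gene lie on both sides of 0: Fgf11 is at 3.04 and Fgf13 at -1.97 in the Fgf14 group.

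Compared per kilobase of the longest transcript, so that genes can be set side by side, Atxn10 was the most abundant of the 9 in every group. In input WT it was at 69.5 ± 2.70 CPM per kb (SD, n = 4), the 95.1 percentile of 15117 genes with a known length. Fgf14 (20.3 ± 3.25) and Ppp2r2b (17.8 ± 0.746) followed with overlapping ranges, then Elovl4 (14.2 ± 0.625) and Atxn2 (13.2 ± 0.853), which overlapped too, and Ttbk2 (11.4 ± 0.470). Atxn7 (4.79 ± 0.318) was next, and Atxn3 (3.62 ± 0.170) and Atxn1 (3.36 ± 0.157) overlapped at the bottom. Dividing by length does not remove the length trend between TRAP and input described above. In TRAP WT (n = 3) the order changed at both ends. Ppp2r2b, at 52.9 ± 2.44 CPM per kb, came next to Atxn10, at 64.5 ± 8.27. Elovl4 (19.5 ± 2.77), Atxn2 (16.2 ± 1.80) and Fgf14 (16.1 ± 2.85) were not separated by their ranges, and Ttbk2 was at 7.68 ± 1.89. Atxn1 (2.38 ± 0.301) and Atxn3 (2.03 ± 0.0627) overlapped, and Atxn7 (1.27 ± 0.196) was lowest, below all other ranges. In TRAP KO (n = 4) Atxn7 was at 1.72 ± 0.334 and overlapped Atxn3 at 1.94 ± 0.163.

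Relatives and binding partners were listed for the ataxia genes other than Atxn10, and 34 of the 35 listed were tested. They gave 15 higher, 12 lower and 7 not passed in WT, and 12, 12 and 10 in KO. Of all genes, 37.0% were called higher and 38.5% lower in WT, and 36.3% and 39.6% in KO. The largest differences lay in the Fgf14 group. Fgf11, another intracellular growth factor homologue, was higher in TRAP at 3.04 ± 0.12 in WT, and Fgf13 was lower at -1.97 ± 0.19, while Fgf12 (0.23) did not pass. Of the sodium channel genes, Scn2a, an alpha subunit, was lower at -2.85 ± 0.17 in WT. Scn1a passed as higher in WT at 0.83 ± 0.27 and did not pass in KO at 0.50, and its genotype by fraction interaction was -0.33 ± 0.39. Scn8a (-0.22) did not pass. Under the scaling by totals Scn1a was at 0.0028 in WT and -0.24 in KO, while the signs of Fgf11, Fgf13 and Scn2a held there and under the length offset.

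Phosphatase 2A genes moved in both directions. The catalytic subunit Ppp2cb was higher at 1.47 ± 0.10 in WT and the scaffold subunit Ppp2r1b lower at -1.17 ± 0.15. Ppp2ca (0.74), Ppp2r2d (0.77), Ppp2r1a (0.56) and Ppp2r2c (0.46) were called higher in WT but turned negative under the scaling by totals, and Ppp2r2a (-0.11) did not pass. In KO, Ppp2ca (0.76) and Ppp2r2d (0.72) passed, and Ppp2r1a (0.25) and Ppp2r2c (-0.045) did not. Among the 4 tested B subunits of this family Ppp2r2b had the highest ratio in both genotypes.

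Among the relatives and partners of ataxin-7, Atxn7l1 (1.01 ± 0.10) and Atxn7l3 (1.39 ± 0.12) were higher in WT, and Atxn7l2 (-0.91 ± 0.17) and the deubiquitinase Usp22 (-0.50 ± 0.10) were lower. Eny2, a small subunit of the same module, was higher at 0.74 and turned negative under the scaling by totals. For ataxin-3, the ubiquitin receptor Rad23b (0.93 ± 0.12) was higher in WT, and Vcp (0.20), Josd1 (0.21) and Josd2 (0.22) did not pass. In KO, Rad23b at 0.71 and Josd2 at 0.62 passed but turned under the scaling by totals, and Josd2 also under the length offset. For ataxin-2, both Atxn2l (-1.02 ± 0.13) and the poly(A)-binding protein gene Pabpc1 (-1.12 ± 0.12) were lower. Atxn2 was opposite in sign with TMM scaling and turned negative, as they were, under the scaling by totals. Atxn1l was at 0.50 and turned under the scaling by totals, and Cic, which encodes Capicua, was at -0.34 and turned under the length offset. In the Ttbk2 group the centriole gene Cep164 was lower (-1.64 ± 0.20) and Ttbk1 (-0.27) did not pass. Of the elongases, Elovl2 (-2.84 ± 0.17), Elovl1 (-1.80 ± 0.25) and Elovl7 (-1.42 ± 0.11) were lower, and Elovl6 was at 0.42 and turned under the scaling by totals.

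Of 32 genes listed as linked to other dominant ataxias, not all of them with an established role, 31 were tested. In both genotypes 16 were higher, 10 lower and 5 not passed, with a median of 0.48 in WT and 0.46 in KO. Over all genes 37.0% were called higher and 38.5% lower in WT, and 36.3% and 39.6% in KO. Among the 5 highest in WT were Bean1 (3.47 ± 0.12), the T-type calcium channel Cacna1g (2.71 ± 0.26) and the inositol trisphosphate receptor Itpr1 (2.28 ± 0.27). Each of these exceeded Ppp2r2b. The 5 lowest were Pdyn, Mme, Plekhg4 (-2.16 ± 0.31), Fat2 (-2.04 ± 0.32), which is also on the granule cell marker list, and Samd9l (-1.91 ± 0.33). Pdyn and Mme were near the counting floor, at 0 to 0.0684 and 0 to 0.0829 CPM in TRAP WT and 0.235 to 0.438 and 0.730 to 0.877 CPM in input WT, so no fold is given.

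The next comparison asks whether loss of Astn2 changed the ataxia genes in the whole cerebellum. None of the 9 passed in input by edgeR's quasi-likelihood test, where 0.0188% of all genes did, and 2 of 9 had an unadjusted p under 0.05, where 13.7% of all genes did. Those were Ttbk2 and Atxn10, and both were higher in every KO library than in every WT library, an upward separation shown by 6.10% of all genes. Ttbk2 had a mean ± SD of 127 ± 5.24 CPM over the 4 WT libraries and of 159 ± 6.03 CPM over the 3 KO libraries. The lowest KO library, at 153 CPM, was above the highest WT library, at 133 CPM. The fold was 1.25 (95% interval 1.12 to 1.39), a log2 fold change of 0.32 ± 0.067, with an adjusted p of 0.168. DESeq2's Wald test called it, at an adjusted p of 0.00370, with 101 genes of the table higher and 191 lower, against 1 and 2 by edgeR. Over the 7 fits that left out 1 library each the log2 fold change was 0.30 to 0.36 and the adjusted p 0.0533 to 0.801, and with the length offset it was 0.21 (adjusted p = 0.235). Long relative to short transcripts were at 0.016 to 0.079 on the log2 scale in input KO and -0.11 to 0.042 in input WT. Cdan1, which shares exon sequence with Ttbk2, was at -0.15 ± 0.059 (adjusted p = 0.312), on the other side of 0.

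Atxn10 was at 135 ± 5.22 CPM in input WT and 151 ± 11.7 CPM in input KO, with input KO 2 at 138 CPM next to the highest WT libraries. The fold was 1.15 (1.04 to 1.27), with an adjusted p of 0.254. For the other genes the intervals of the fold included 1. Fgf14 was at 1.18 (0.969 to 1.45), Ppp2r2b at 1.10 (0.979 to 1.23), Atxn2 at 1.06 (0.947 to 1.19) and Atxn1 at 1.03 (0.924 to 1.15). Atxn3 was at 0.956 (0.870 to 1.05), Elovl4 at 0.947 (0.845 to 1.06) and Atxn7 at 0.914 (0.835 to 1.00). Fgf14 had the widest interval: input WT 1 and 2 were at 87.0 and 78.9 CPM, within the KO range, and input WT 3 and 4 were below it. Over all 9 genes the bounds of these intervals ran from 0.835 to 1.45.

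**Figure D4:**
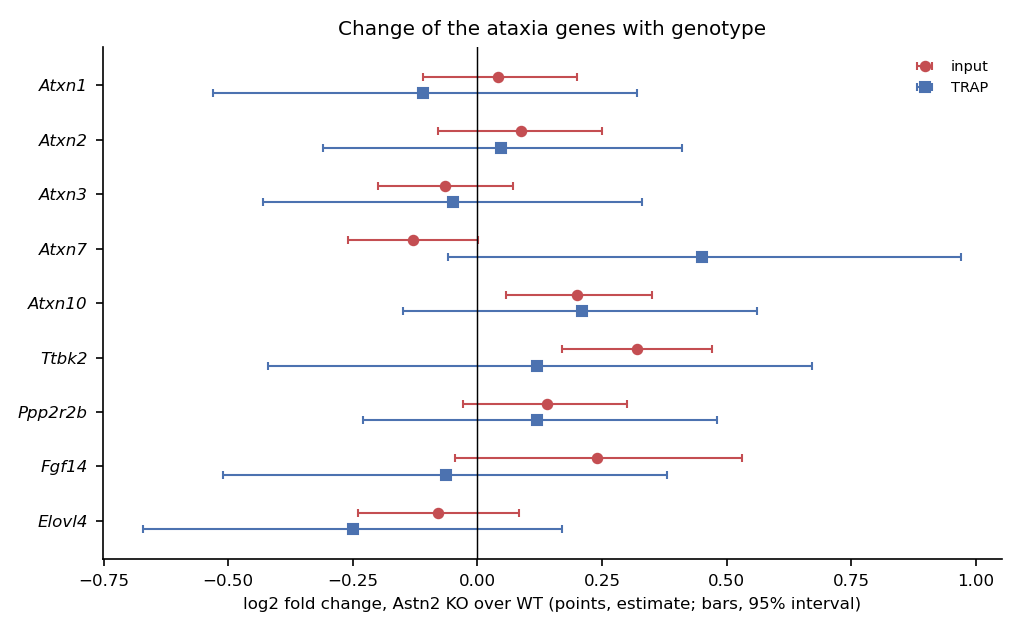
KO against WT for the 9 ataxia genes in input and in TRAP, with the log2 fold change on the horizontal axis and bars for the 95% confidence interval of edgeR's fit. Ttbk2 and Atxn10 in input are the only genes whose interval lies wholly above 0, and the TRAP intervals are wider than the input ones for all 9 genes.

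The same question was asked of the TRAP libraries. In TRAP none of the 9 passed by edgeR's quasi-likelihood test, where 0.00707% of all genes did, which is Astn2 alone, and none had an unadjusted p under 0.05, where 212 of 14145 genes (1.50%) did. DESeq2's Wald test and voom with sample quality weights called none of the 9 either. Atxn7 had the largest difference, with a mean ± SD of 8.68 ± 1.35 CPM over the 3 WT libraries and of 11.8 ± 2.29 CPM over the 4 KO libraries. Its lowest KO library, KO 3 at 9.85 CPM, was above the highest WT library, WT 1 at 9.57 CPM, a separation seen in this direction in 1 of 9 ataxia genes and 1.80% of all genes. The fold was 1.37 (0.960 to 1.95), with an adjusted p of 1.00, and leaving out 1 library gave log2 fold changes of 0.24 to 0.63. Atxn10 was at 1.15 (0.903 to 1.47), as in input. Elovl4 was at 0.839 (0.627 to 1.12), Ttbk2 at 1.09 (0.745 to 1.59), Ppp2r2b at 1.09 (0.852 to 1.39), Atxn2 at 1.03 (0.807 to 1.33), Atxn3 at 0.966 (0.740 to 1.26), Fgf14 at 0.957 (0.702 to 1.31) and Atxn1 at 0.927 (0.690 to 1.24). The biological coefficient of variation was 0.247 in TRAP and 0.109 in input, so smaller changes were detectable in input.

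Whether KO and WT differed in their TRAP to input ratio was tested as an interaction. None of the 9 genes passed, nor did any gene of the table by edgeR's quasi-likelihood test, and at an unadjusted p under 0.05 there was 1 of 9 ataxia genes, Atxn7, and 2.68% of all genes. DESeq2's Wald test called 1 gene of the table and voom with sample quality weights none. The log2 ratio of Atxn7 was higher in KO by 0.53 ± 0.21, with a 95% interval of 0.08 to 0.98 and an adjusted p of 0.999. Thus the WT value of -1.93 and the KO value of -1.40 were not shown to differ after adjustment. For Fgf14, called lower in KO only, the interaction was -0.39 ± 0.24, and for Elovl4, called higher in WT only, it was -0.19 ± 0.18. No relative, partner or other ataxia gene passed in either genotype comparison or in the interaction. At an unadjusted p under 0.05 there were 9 of 34 relatives and partners and 3 of 31 other ataxia genes in input (13.7% of all genes), 0 of 34 and 1 of 29 in TRAP (1.50% of all genes), and 0 of 34 and 2 of 31 in the interaction (2.68% of all genes).

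For each ataxia gene the genes with the most similar pattern over the 14 libraries were found by Pearson's r of log2(CPM + 1) among 11016 genes, as a description, since all points share the split into TRAP and input. Ppp2r2b was nearest to Zmat3 (r = 0.998) and Ubl3 (0.997), Atxn7 to Ints2 (0.991) and Yod1 (0.989), and Atxn3 to Poc1b (0.991) and Itga4 (0.990). Ttbk2 was nearest to Htt (0.988), the gene of huntingtin, and Prkaa2 (0.985), and Atxn1 to Ybx1 (0.980) and Ddx6 (0.975). For Atxn2 they were Rrp12 (0.966) and Riox1 (0.950), for Elovl4 Sppl3 (0.958) and Nkain4 (0.951), and for Fgf14 Xpo7 (0.936) and Zzz3 (0.924). Atxn10, which did not separate the fractions, had the lowest likeness, with Ppp2r2a (0.909), a relative of Ppp2r2b, and Uba2 (0.905).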

How the data were processed

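The deposited table holds 1 column of gene counts for each of 14 libraries, with Entrez numbers as row names. Per the submitters' processing notes, Salmon 0.8.2 and the build mm10 were used, with no role given. The deposited values are whole numbers with totals of 18799609 to 54229183 and were taken as the authors' estimated counts, rounded. The annotation and strand setting are not given in the sources used here, so reads of genes that overlap, such as Ttbk2 with Cdan1, or Atxn1, Atxn2, Ppp2r2b and Fgf14 with genes on the opposite strand, cannot be told apart with certainty. Symbols came from the RefSeq table of GRCm38.p6, which matched 24045 of 24100 genes.

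The test was edgeR's quasi-likelihood test (edgeR 4.0.16, R 4.3.3). It was two-sided, with sex as a covariate, TMM scaling, the filterByExpr filter on low counts, and Benjamini-Hochberg adjustment over all genes tested at a threshold of 0.05. TRAP against input and the interaction were fitted on all 14 libraries (16042 genes), and KO against WT on the 7 libraries of a fraction (14145 genes in TRAP, 15997 in input). The scripts were tested on simulated data, with 100 genes changed by 1 on the log2 scale. For KO against WT 42.0% were recovered in TRAP and 100% in input. In the interaction 13.0% were, and in TRAP against input 45.0% in WT and 51.0% in KO. The simulated coefficient of variation was 0.11 for input and 0.25 elsewhere, above the 0.182 fitted for the interaction and for TRAP against input. Alternatives were DESeq2 1.42.0, limma 3.58.1 with voom and sample quality weights, other scalings and filters, no sex term, a replicate block, each library left out, and, added after seeing the data, loess offsets (span 0.3) on the length or GC content of the longest transcript.

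Named were all 9 genes, every relative or partner, the 5 highest and 5 lowest called genes of the other ataxia list, any listed gene called in a genotype comparison, and the 2 nearest patterns per gene among genes with a mean of at least 5 CPM. A few genes under this rule are not reported here. The genes and lists were chosen with earlier results of these data known. Between libraries of a group the chi-square statistic per degree of freedom was 8.63 to 267, more than counting error alone gives. So none was a second sequencing of the same library, but this cannot show that libraries came from separate animals. In TRAP WT the statistic was 37.4 between libraries 1 and 2, 159 between 1 and 3, and 267 between 2 and 3. The counting floor was 3 counts per library, and it covers counting error only.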

Additional observations from a re-analysis of the deposited data

Results flagged for a closer look

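In the groups of 4 libraries, 18 values were examined for a library far from the rest, by the gap to its nearest neighbour as a share of the group's range on the log2(CPM + 1) scale, and 3 exceeded the critical value of 0.829. Chance gives about 1 such value in 20. Atxn3 was highest in input WT 1, at 4.45 against 4.31 to 4.33 in the other libraries (share 0.846). Atxn10 was lowest in that same library, at 127 CPM against 136 to 138 CPM (share 0.860). Input WT 1 is the only female of its group, and the part of sex in these values was not tested. Elovl4 was lowest in TRAP KO 4, at 5.31 against 5.73 to 5.74 (share 0.964). In TRAP against input in KO the log2 fold change of Elovl4 was 0.28 with that library (adjusted p = 0.0644) and 0.38 without it (adjusted p = 0.00517), by edgeR's quasi-likelihood test. It also passed without TRAP WT 1, at 0.29 (adjusted p = 0.0363).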

How the results depend on the processing

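Adjusted p-values here are from edgeR's quasi-likelihood test unless named otherwise. In TRAP against input the direction and call of Atxn3, Atxn7 and Ppp2r2b held under every alternative in both genotypes. Correction for transcript length reversed Atxn1 (0.61 in WT, 0.50 in KO) and Ttbk2 (0.56 and 0.33), scaling by library totals reversed Atxn2 (-0.51 and -0.48) and Elovl4 (-0.36 and -0.46), and voom weights moved Atxn10 in WT to 0.06. The cause was not tested. With the GC content offset in KO, Atxn2 did not pass, at 0.27 (adjusted p = 0.0714), and Elovl4 passed, at 0.45 (adjusted p = 0.00697). In KO against WT in input, DESeq2's Wald test called 1 of 9 genes, Ttbk2, where edgeR called none (101 genes of the table higher and 191 lower, against 1 and 2). Atxn1 in input was -0.065 with the length offset. In TRAP, KO against WT, Atxn2 was -0.058 and Ttbk2 -0.061 with the replicate block, and Atxn3 0.0021 by totals. In the interaction, totals gave 0.037 for Atxn2, 0.022 for Atxn3 and 0.072 for Ppp2r2b, voom weights -0.15 for Atxn10 and 0.07 for Elovl4, the length offset -0.019 for Atxn10, and both the mean count filter and the fit without sex 0.011 for Ppp2r2b. None of these interaction values passed the test. With 1 library left out, small values without a call crossed 0. In TRAP these were Atxn2 (-0.034 to 0.14), Atxn3 (-0.086 to 0.079), Ttbk2 (-0.11 to 0.31) and Fgf14 (-0.24 to 0.069), and in input Atxn1 (-0.015 to 0.11) and Fgf14 (-0.014 to 0.48). In the interaction they were Atxn2 (-0.11 to 0.025), Atxn3 (-0.12 to 0.0025), Atxn10 (-0.094 to 0.13) and Ppp2r2b (-0.08 to 0.094). Same-numbered input and TRAP libraries had the same sex, and the labels do not say whether they came from the same animals. They deviated together with correlations of 0.292, 0.243 and 0.098 in WT and 0.225, 0.225 and -0.125 in KO. Not all were above 0.1, so the numbers were not taken as pairs, and the main fit took the fractions as independent. With a replicate block 7 of 9 genes were called in TRAP against input in each genotype, as without it. Of 15996 genes tested in that fit, 5586 were called higher and 6007 lower in WT, and 5550 and 5892 in KO. Atxn2, at 0.21 (adjusted p = 0.142), and Elovl4, at 0.38 (adjusted p = 0.0176), traded places in KO.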
